A study of Mus musculus with 5 samples.

Results

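The metallothionein genes Mt1 and Mt2 and 8 genes of the NRF2 antioxidant response (Nfe2l2, Nqo1, Hmox1, Gclm, Gclc, Txnrd1, Srxn1 and Gpx3) were followed by RNA-Seq in lung fibroblasts after deletion of Igf1r, the insulin-like growth factor 1 receptor. They were taken by gene symbol, and all 10 were found among the 23478 genes of the count table. The cells were GFP-sorted lung cells of mouse pups at P6. Control pups (2 libraries) carried 1 floxed and 1 wild-type Igf1r allele, and Igf1r-deleted pups (3 libraries) carried 2 floxed alleles. Pups of both genotypes carried Gli1-CreERT2 and a Rosa26-eGFP reporter, and all were given 100 µg of tamoxifen at P0 and at P1. The controls were therefore Cre-positive, tamoxifen-treated heterozygotes rather than wild-type mice. The Gli1-driven Cre acts in Gli1-expressing mesenchyme, mainly myofibroblasts, with some lipofibroblasts and few smooth muscle cells and pericytes. The number of pups behind each library is not given, so the tests below measure only the spread between these libraries.

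Metallothioneins are small, cysteine-rich proteins that bind zinc and copper. Their genes are induced by zinc through the metal-sensing factor MTF1, by oxidative stress, and by glucocorticoids through the glucocorticoid receptor. NRF2, the protein of Nfe2l2, is held low by KEAP1 and, when released by oxidants, switches on genes for glutathione synthesis, thioredoxin recycling, quinone reduction and heme breakdown through antioxidant response elements. In the newborn lung these enzymes meet the rise in oxygen that comes with air breathing.

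Mt1 and Mt2 are neighbours on the plus strand of chromosome 8 in mm10. Mt2 spans chr8:94172664-94173568 and Mt1 spans chr8:94179082-94180327, with 5513 bases between them. Their promoter windows are shown because the largest differences among the 10 genes were those of Mt1 and Mt2, and metal response elements are the family's best known control sites. Each window is the RefSeq sequence of GRCm38.p6 from 250 bases before to 50 bases after the start site. Capitals mark the core of the metal response element, TGCACNC or TGCGCNC on either strand.
Mt1, chr8:94178839-94179138, plus strand: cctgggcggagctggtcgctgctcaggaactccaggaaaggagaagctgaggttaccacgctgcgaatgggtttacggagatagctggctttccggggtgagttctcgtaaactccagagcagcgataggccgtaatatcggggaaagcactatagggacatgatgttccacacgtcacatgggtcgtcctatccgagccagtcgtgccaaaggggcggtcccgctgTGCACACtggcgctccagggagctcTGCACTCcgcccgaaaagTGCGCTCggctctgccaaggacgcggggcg
Mt2, chr8:94172368-94172667, plus strand: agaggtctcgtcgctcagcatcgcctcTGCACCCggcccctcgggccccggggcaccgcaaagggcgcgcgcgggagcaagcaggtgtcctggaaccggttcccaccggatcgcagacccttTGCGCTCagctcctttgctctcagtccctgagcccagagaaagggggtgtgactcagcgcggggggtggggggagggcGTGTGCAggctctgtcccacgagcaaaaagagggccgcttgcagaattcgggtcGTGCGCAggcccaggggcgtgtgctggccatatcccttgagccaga
The Mt1 window held 3 such cores and the Mt2 window held 4, beside 1.97% of 32851 mouse promoter windows of this length with at least 3. The Mt1 cores at window bases 253 to 259 and 271 to 277 lay after the RefSeq start site, as did the Mt2 core at 255 to 261. The Mt1 window also held a match to the glucocorticoid response element palindrome, the half-sites GNACA and TGTNC set 3 bases apart, which reads GGACATGATGTTC at window bases 157 to 169. This palindrome was found in 0.475% of all windows and not in the Mt2 window. The Mt2 window held 1 match to the core of the antioxidant response element, TGACNNNGC, which is found in 12.4% of all windows. These are matches of letters, and binding was not measured.

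The libraries held 35116766 to 37597857 counts each. Levels are given as CPM, each gene's counts per 1000000 counts of its library with edgeR's TMM factors, and 15298 genes had enough counts to be tested, the 10 genes among them. Values of a genotype are listed by replicate number. Igf1r measured 324 CPM in either control, against 140, 177 and 194 CPM after deletion. All 12 fibroblast markers examined were detected, at summed levels of 42346 and 38241 CPM in the controls against 30508 to 39291 CPM after deletion (7 lower, 5 higher, median log2 fold change -0.10). This median covers a split. The myofibroblast genes Acta2, Tagln and Fgf18 had log2 fold changes of 0.78, 0.59 and 0.95 and Tcf21, a lipofibroblast gene, one of -0.57. Each passed an unadjusted p of 0.05 by edgeR, beside 5.65% of all genes as higher and 6.75% as lower, and none did without Control replicate 1. Pdgfra and Eln, which the paper ties to myofibroblasts, did not share the rise. In log2 CPM minus the gene's mean over 5 libraries, Eln was 0.56 and -0.087 in the controls against 0.084, -0.37 and -0.19 after deletion. Pdgfra was 0.31 and -0.099 in the controls against -0.21, -0.018 and 0.018 after deletion. The part of the fibroblast mix in the values below was not tested. Control replicate 1 stood apart from the other libraries at several of the genes below. No gene of the 15298 passed an adjusted p of 0.05 in edgeR's quasi-likelihood test, while 1897 passed an unadjusted p of 0.05 and DESeq2 called 200 of 11735.

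Metallothionein RNA was lower in every Igf1r-deleted library than in either control. Mt1 was 80.1 and 28.5 CPM in control libraries and 21.7, 7.75 and 7.71 CPM after deletion. Control replicate 1 was thus the highest by a wide margin, and Igf1r-deleted replicate 1 lay close to Control replicate 2. The means were 54.3 ± 36.5 CPM (SD, n = 2) and 12.4 ± 8.09 CPM (SD, n = 3), and the fitted level was 4.38-fold lower after deletion. The log2 fold change was -2.13 with an SE of 0.55 and a 95% interval of -3.43 to -0.84. The unadjusted p was 0.00576 by edgeR's quasi-likelihood test, and the Benjamini-Hochberg adjusted p of 0.354 did not pass. DESeq2 gave an adjusted p of 0.155. Among the 15298 genes, 42 (0.275%) had a log2 fold change of -2 or lower, and Mt1 and Mt2 ranked 33 and 41 from the lowest.

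Mt2 followed the same order of libraries. It was 24.1 and 7.50 CPM in the controls against 6.66, 2.49 and 2.39 CPM after deletion, so the genotypes did not overlap but Control replicate 2 and Igf1r-deleted replicate 1 were within 1 CPM of each other. Mt2 was 4.11-fold lower (log2 fold change -2.04, SE 0.58, 95% interval -3.40 to -0.68). Its unadjusted p was 0.00925 and its adjusted p was 0.354 by edgeR's quasi-likelihood test after Benjamini-Hochberg adjustment. Antisense gene Gm45774 overlaps 73.5% of the Mt2 exons, and use of strand in counting is not stated, so reads of the pair cannot be told apart. Mt1 has no such overlap.

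The ratio between the metallothioneins was far steadier than their level. Mt1 counts were 3.32 and 3.79 times those of Mt2 in the controls and 3.26, 3.11 and 3.22 times after deletion. Mt1 made up 76.9% (exact 95% interval 75.4 to 78.2) and 79.1% (76.8 to 81.3) of metallothionein counts in the controls. After deletion it made up 76.5% (73.8 to 79.1), 75.7% (71.2 to 79.8) and 76.3% (71.6 to 80.6). These intervals cover counting error only. The annotated transcripts of both genes share no 31-base stretch with each other. Mt3 had 1 count in each of 2 libraries and 0 in the others. Mt4 had 0 counts in all 5 libraries.

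The size of the metallothionein difference rested in large part on Control replicate 1. Without it, the log2 fold change of Mt1 was -1.21 and that of Mt2 was -0.97, and neither gene passed an unadjusted p of 0.05 in edgeR's quasi-likelihood test. Without Control replicate 2 the values were -2.71 and -2.66. The direction was the same with any library left out. In sorted bulk samples, fewer cells that express a gene and less of its RNA per cell cannot be told apart.

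**Figure D1:**
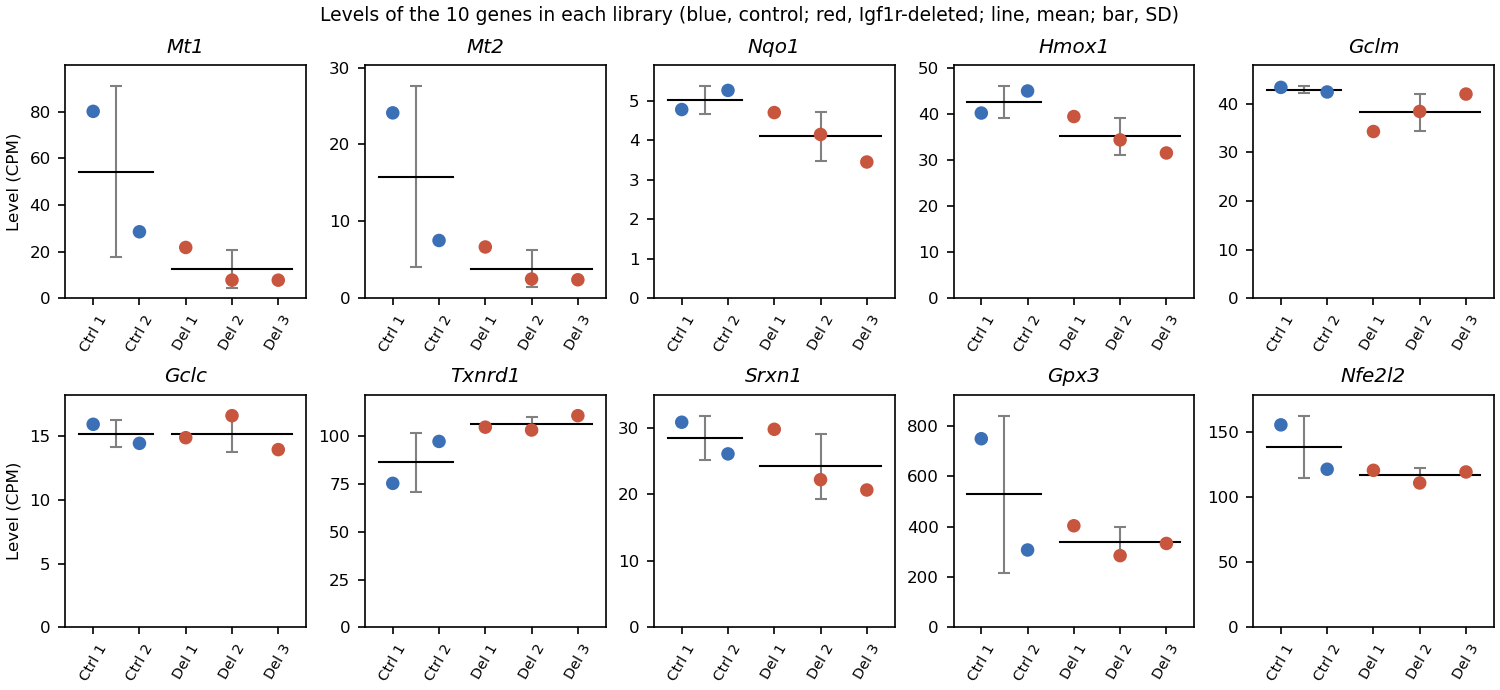
Level of each gene in CPM on the vertical axis of each panel, which starts at 0, for 2 control libraries (blue, Ctrl) and 3 Igf1r-deleted libraries (red, Del). Lines are group means and bars SD; Mt1, Mt2 and Gpx3 have their highest point in Control replicate 1, at 80.1, 24.1 and 748 CPM.

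The genes that sense and move zinc were not lower as a group. Of 27 such genes, 21 were tested: 9 had lower and 12 higher fitted levels, with a median log2 fold change of 0.095 beside 0.015 for all genes, and this median was -0.0041 under the stricter filter on low counts. Mtf1, whose protein senses zinc and binds metal response elements, was 27.2 and 25.5 CPM in control libraries and 25.1, 28.0 and 26.1 CPM after deletion. Its log2 fold change was 0.0033 (95% interval -0.24 to 0.25). Slc39a8, which imports zinc, was 50.2 and 40.3 CPM in the controls against 30.4, 28.7 and 27.8 CPM after deletion. Its log2 fold change was -0.64 with a DESeq2 adjusted p of 0.0045, against 0.354 by edgeR's quasi-likelihood test after Benjamini-Hochberg adjustment. The importer Slc39a6 and the transporter Slc30a9 had log2 fold changes of 0.25 and 0.22 in the other direction. Their adjusted p-values were 0.398 and 0.401 by edgeR's quasi-likelihood test and 0.326 and 0.350 by DESeq2. Neither gene overlapped between genotypes. Of the 21 genes, 4 were higher with no overlap, beside 16.0% of all genes, and 2 were lower with no overlap, beside 14.9%.

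Nearly all genes listed as induced by glucocorticoids had their highest level in Control replicate 1, as Mt1 and Mt2 did. All 22 genes of this list were fitted lower after deletion, with a median log2 fold change of -1.09, and 17 passed an unadjusted p of 0.05 by edgeR, beside 6.75% of all genes in that direction. DESeq2 called 10 of the 22 as lower, beside 1.23% of the genes it adjusted. In 21 of the 22, Control replicate 1 was the highest library, beside 26.4% of all genes. Their summed level was 9154 and 5433 CPM in control libraries and 4073, 3493 and 3952 CPM after deletion. Without Control replicate 1, the median was -0.54 and 11 of the 22 passed the unadjusted threshold as lower, beside 1.61% of all genes.

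Individual genes of this list showed how far the controls differed from each other. Tsc22d3, which encodes the glucocorticoid-induced leucine zipper, was 649 and 222 CPM in the controls against 134, 97.1 and 100 CPM after deletion (log2 fold change -1.98, SE 0.39). Pdk4, which restrains pyruvate entry into the mitochondrial citrate cycle, had a log2 fold change of -1.90 (SE 0.35). Klf9, a transcription factor, and Sult1a1, a sulfotransferase, had log2 fold changes of -1.29 and -1.10. DESeq2 gave adjusted p-values of 3.56e-05 for Pdk4, 1.32e-04 for Klf9, 0.00183 for Sult1a1 and 0.0343 for Tsc22d3. None of these genes passed edgeR's quasi-likelihood test after Benjamini-Hochberg adjustment, where the adjusted p was 0.354 for each.

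The genes closest to Mt1 were found by the root mean square difference of log2 CPM, centred on each gene's mean, over the 5 libraries. Mt2 lay at 0.102, although its mean was under the minimum of 10 CPM set for the comparison. Of the 9093 genes at or above that minimum, the closest outside the 10 were Hif3a (0.209), Fmo2 (0.290), Has2 (0.313), Ccl6 (0.367) and Tsc22d3 (0.415), of which Hif3a and Tsc22d3 are on the glucocorticoid list. Hif3a, a hypoxia-inducible factor subunit, was 104 and 31.4 CPM in control libraries and 25.5, 8.10 and 6.46 CPM after deletion. Fmo2, a flavin monooxygenase of lung, was 3528 and 1411 CPM in the controls against 1193, 520 and 597 CPM after deletion. For Has2, which makes hyaluronan, Igf1r-deleted replicate 1 (36.2 CPM) lay above Control replicate 2 (26.9 CPM). With 5 points per gene this is a description only.

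**Figure D2:**
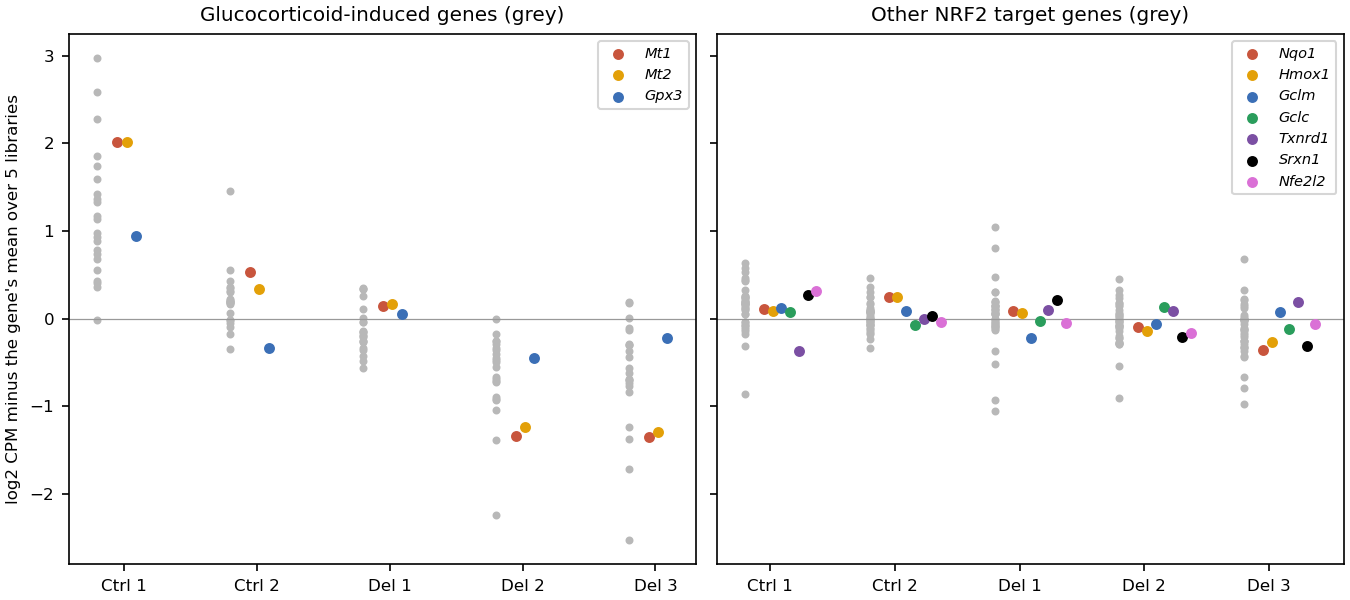
Log2 CPM minus the gene's mean over 5 libraries (vertical axis) in each library (Ctrl, control; Del, Igf1r-deleted); grey points are the other genes of the list named above each panel and coloured points are the genes named in each key. Mt1 and Mt2 lie high in Control replicate 1 with most glucocorticoid-induced genes. The coloured genes of the right panel lie between -0.37 (Txnrd1) and 0.32 (Nfe2l2). That range leaves out Gpx3, an NRF2 gene drawn in the left panel, which runs from -0.45 to 0.95 and is highest in Control replicate 1.

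Markers of other cells and of tissue handling were examined beside these values. All 12 leukocyte and macrophage markers were detected and fitted lower after deletion (median log2 fold change -0.69), with 2 past an unadjusted p of 0.05 by edgeR, beside 6.75% of all genes. Without Control replicate 1, 0 passed, beside 1.61% of all genes, and the median was -0.31. Without Igf1r-deleted replicate 1, 8 passed, beside 11.6% of all genes, and the median was -1.08. Their summed level was 541 and 366 CPM in control libraries and 201 to 442 CPM after deletion, with Lyz2 the most abundant, so the summed levels of the genotypes overlapped. All 16 genes of the response to tissue dissociation, which are immediate early and heat shock genes, were fitted lower (median -0.45). The unadjusted threshold was passed by 10, beside 6.75% of all genes, and without Control replicate 1 by 5, beside 1.61%. DESeq2 called 5 of the 16 as lower, beside 1.23% of the genes it adjusted. Their summed levels were 28383 and 24220 CPM in the controls against 17576 to 20544 CPM after deletion. Dnajb1, a heat shock co-chaperone, was 285 and 291 CPM in control libraries and 171, 129 and 132 CPM after deletion. Its DESeq2 adjusted p was 3.27e-07, against 0.310 by edgeR's quasi-likelihood test after Benjamini-Hochberg adjustment. Socs3, Zfp36 and Junb, which respond early to stimuli, had log2 fold changes of -0.76, -0.58 and -0.54. The part of these genes in the metallothionein values was not tested.

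Erythroid, epithelial, endothelial and mesothelial markers were also examined. Of the erythroid markers 2 of 7 were tested, and the globin genes had 0 or near 0 counts, at summed levels of 0.751 to 4.34 CPM over the list. Of 10 epithelial markers 9 were fitted lower (median -0.39), with summed levels of 1101 and 1026 CPM in the controls against 496 to 1103 CPM after deletion. The 8 endothelial markers were split evenly (median -0.071; 505 and 498 CPM against 251 to 709 CPM), and 4 of 5 mesothelial markers were fitted lower (median -0.28; 422 and 432 CPM against 326 to 441 CPM).

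In contrast to the metallothioneins, Nfe2l2 itself differed little between genotypes. It was 155 and 121 CPM in control libraries and 120, 111 and 119 CPM after deletion, so Control replicate 2 and Igf1r-deleted replicate 1 were almost equal. The log2 fold change was -0.24 (SE 0.13, 95% interval -0.54 to 0.050), and without Control replicate 1 it was -0.060. Nfe2l2 RNA is not a measure of NRF2 activity, since NRF2 is controlled mainly through the stability of its protein. Of 13 other genes that regulate NRF2, 6 were fitted lower and 7 higher (median 0.0082). An unadjusted p of 0.05 was passed by 0 higher genes, beside 5.65% of all genes, and by 2 lower genes, beside 6.75%. These were Mafk, a small MAF partner of NRF2 (log2 fold change -0.50, SE 0.14), and Sqstm1, which encodes the autophagy receptor p62 that binds KEAP1 (-0.35, SE 0.12). Both were highest in Control replicate 1, at 149 CPM for Mafk and 684 CPM for Sqstm1, against 118 and 560 CPM in Control replicate 2. Without Igf1r-deleted replicate 2 or 3, 1 lower gene passed, beside 4.15% and 4.18% of all genes. Keap1 was 80.1 and 85.3 CPM in the controls against 91.0, 98.1 and 89.2 CPM after deletion (log2 fold change 0.17). Bach1, which encodes a repressor of Hmox1, had a log2 fold change of -0.25 with overlapping genotypes.

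The quinone and heme enzymes were slightly lower after deletion, within the error of the fit. Nqo1, which reduces quinones, was 4.78 and 5.27 CPM in control libraries and 4.70, 4.15 and 3.45 CPM after deletion. Its lowest control lay just above its highest Igf1r-deleted library, and the log2 fold change was -0.29 (SE 0.22, 95% interval -0.82 to 0.23). Hmox1, the inducible heme oxygenase, was 40.2 and 45.0 CPM in the controls against 39.4, 34.4 and 31.5 CPM after deletion. Its log2 fold change was -0.28 (SE 0.12, 95% interval -0.57 to 0.012). Control replicate 2, not replicate 1, was the highest library for both enzymes. Hmox1 is also expressed by macrophages, whose markers were fitted lower after deletion with overlapping summed levels, and their part in the Hmox1 value was not tested.

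By the same measure, the profiles closest to Hmox1 outside the 10 genes were those of Hmcn1 (root mean square difference 0.0372), Hspa8 (0.0378), Mrpl11 (0.0382), Zfp358 (0.0387) and Dync1h1 (0.0428). Nqo1, whose mean was under 10 CPM and which is not among the genes compared, lay at 0.0484. The log2 fold changes of the 5 genes, which the choice by profile largely fixes, ranged from -0.32 for Mrpl11, a mitochondrial ribosomal protein, to -0.21 for Dync1h1, the dynein heavy chain.

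Neither subunit of the enzyme that starts glutathione synthesis passed the test. Gclm, the modifier subunit of glutamate-cysteine ligase, was 43.4 and 42.5 CPM in control libraries and 34.3, 38.5 and 42.0 CPM after deletion (log2 fold change -0.17, SE 0.11, 95% interval -0.43 to 0.099). The genotypes did not overlap, but the highest Igf1r-deleted library came within 1 CPM of the controls. Gclc, the catalytic subunit, was 15.9 and 14.4 CPM in the controls against 14.9, 16.6 and 13.9 CPM after deletion, with a log2 fold change of -0.0034 (95% interval -0.32 to 0.32). The ratio of Gclm to Gclc counts was 2.73 and 2.95 in the controls and 2.31, 2.32 and 3.02 after deletion, so the ranges overlapped. Of the 31-base stretches of Gclm transcripts, 5.61% also occur in other genes, so its counts are the least certain of the 10 in this respect.

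Of the 10 genes, Txnrd1 alone was fitted higher after deletion. This cytosolic thioredoxin reductase was 75.3 and 97.3 CPM in control libraries and 105, 103 and 111 CPM after deletion. Every Igf1r-deleted library lay above both controls, with Control replicate 1 the lowest. The log2 fold change was 0.30 (SE 0.13, 95% interval 0.0012 to 0.60), the unadjusted p was 0.0493 and the adjusted p was 0.401 by edgeR's quasi-likelihood test after Benjamini-Hochberg adjustment. The unadjusted p passed 0.05 neither by DESeq2 nor with its size factors, and leaving out Control replicate 1 gave a log2 fold change of 0.12. Srxn1, which repairs overoxidized peroxiredoxins, was 30.9 and 26.1 CPM in the controls against 29.8, 22.2 and 20.7 CPM after deletion. Its log2 fold change was -0.23 (SE 0.17, 95% interval -0.64 to 0.17), with overlapping genotypes.

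Gpx3, the secreted, selenium-containing glutathione peroxidase, was high in Control replicate 1 alone. It was 748 and 307 CPM in control libraries and 403, 285 and 333 CPM after deletion, so Control replicate 2 fell inside the Igf1r-deleted range. The log2 fold change of -0.63 (SE 0.34, 95% interval -1.42 to 0.16) turned to 0.14 without Control replicate 1 and was -1.15 without Control replicate 2. Gpx3 was 2.44-fold higher in Control replicate 1 than in Control replicate 2, as were Mt1 (2.81-fold) and Mt2 (3.21-fold), while 2.85% of all genes reached 2-fold. For the other 7 genes this ratio lay between 0.775 (Txnrd1) and 1.28 (Nfe2l2). The profile of Gpx3 lay at a root mean square difference of 0.892 from that of Mt1, rank 218 among the 9093 genes. That was farther than Mt2 (0.102) and Tsc22d3 (0.415), but nearer than most of the genes compared. Among the NRF2 genes followed, Gpx3 was the nearest to Mt1, ahead of Srxn1 (1.07, rank 708).

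**Figure D3:**
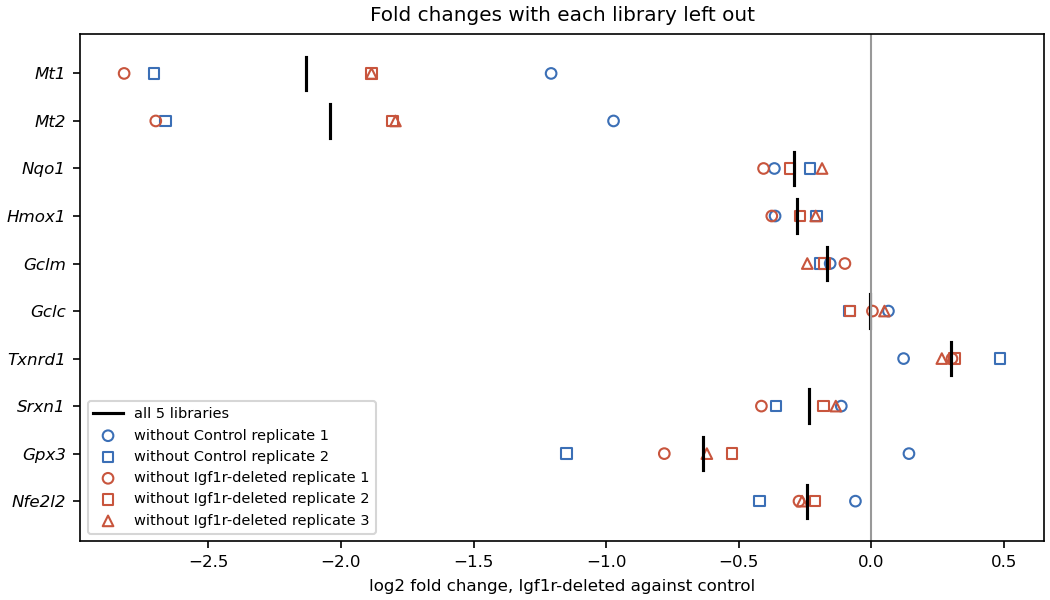
Log2 fold change, Igf1r-deleted against control, on the horizontal axis for each gene with all 5 libraries (black bar) and with each library left out (symbols in the key). Leaving out Control replicate 1 moves Mt1 to -1.21, Mt2 to -0.97 and Gpx3 to 0.14.

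Across the 10 genes, 9 were fitted lower and 1 higher, beside 47.7% of all genes fitted lower. The unadjusted p passed 0.05 for 2 genes that were lower (Mt1 and Mt2), beside 6.75% of all genes, and for 1 that was higher (Txnrd1), beside 5.65%. None of the 10 passed without Control replicate 1, where 1.61% of all genes passed as lower and 1.15% as higher. Without Control replicate 2, 4 lower genes passed (Mt1, Mt2, Gpx3 and Nfe2l2), beside 7.89% of all genes, and Txnrd1 passed as higher, beside 6.95%. Without Igf1r-deleted replicate 1, 4 lower genes passed (Mt1, Mt2, Hmox1 and Srxn1), beside 11.6% of all genes, and none passed as higher, beside 9.4%. No overlap between genotypes was seen for 6 lower genes (Mt1, Mt2, Nqo1, Hmox1, Gclm and Nfe2l2), beside 14.9% of all genes, and for 1 higher gene, beside 16.0%. With scaling by library totals the count of lower genes was 2 (Mt1 and Mt2). With genotype as the only term, none of the 10 had an adjusted p under 0.05 by edgeR or by DESeq2. DESeq2 called 1.7% of all genes it adjusted (1.23% lower and 0.477% higher), and edgeR's adjusted p-values of the 10 ran from 0.354 to 0.994. The median log2 fold change was -0.26, or -0.24 without Mt1 and Mt2. For all 10, leaving out Control replicate 1 gave -0.13, and leaving out Igf1r-deleted replicate 1 gave -0.39.

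**Figure D4:**
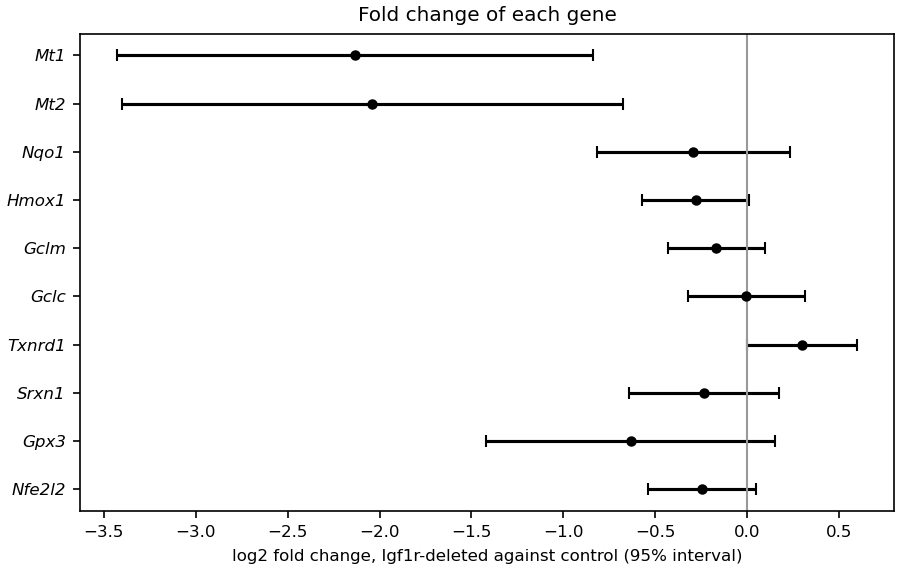
Log2 fold change, Igf1r-deleted against control, on the horizontal axis for each gene (points) with the 95% interval of edgeR's fit (bars). The intervals of Mt1, Mt2 and Txnrd1 exclude 0, the last barely, from 0.0012 to 0.60.

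Most other NRF2 targets were fitted lower by a small amount. Of 40 other NRF2 targets, 36 were tested: 26 were fitted lower and 10 higher, beside 47.7% of all genes fitted lower. The median log2 fold change was -0.10 beside 0.015 for all genes. An unadjusted p of 0.05 was passed by 5 lower genes and 1 higher gene, beside 6.75% and 5.65% of all genes. Without Control replicate 1 the lower count was 1 (beside 1.61%) with a median of -0.031. Without Control replicate 2 it was 6 (beside 7.89%) with a median of -0.23, and without Igf1r-deleted replicate 1 it was 8 (beside 11.6%) with a median of -0.14. The median was -0.033 without Igf1r-deleted replicate 3. With scaling by library totals it was -0.032, beside 0.088 for all genes. Mgst1, a microsomal glutathione transferase, was 76.4 and 67.4 CPM in the controls against 51.8, 48.8 and 45.2 CPM after deletion (log2 fold change -0.56, SE 0.11), with a DESeq2 adjusted p of 0.0038. Gstm1, a cytosolic glutathione transferase (-0.61), and Blvrb, a biliverdin reductase that acts after heme oxygenase (-0.41), had the same direction. Me1, the malic enzyme that makes NADPH, had the opposite one. It was 11.8 and 20.4 CPM in control libraries and 23.7, 29.4 and 27.0 CPM after deletion, with a log2 fold change of 0.73 (SE 0.23). Its DESeq2 adjusted p was 0.116, and Control replicate 1 was its lowest library.

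Most other antioxidant enzymes were also fitted lower by a small amount, with genes in both directions. Of 27 genes, 26 were tested, with 18 fitted lower and 8 higher (median -0.068), beside 47.7% of all genes fitted lower. With scaling by library totals the median was 0.0035, beside 0.088 for all genes. An unadjusted p of 0.05 was passed by 3 lower genes, beside 6.75% of all genes, and by 1 higher gene, beside 5.65%. Sepp1, which encodes the secreted selenoprotein P that carries selenium, was 1039 and 907 CPM in the controls against 756, 622 and 657 CPM after deletion, with a log2 fold change of -0.52 and a DESeq2 adjusted p of 0.0150. Prdx6, a peroxiredoxin abundant in lung, and Sod1, the cytosolic superoxide dismutase, had log2 fold changes of -0.51 and -0.37. Sepp1, Prdx6 and Sod1 were each highest in Control replicate 1. Sod3, the extracellular superoxide dismutase, was 328 and 300 CPM in control libraries and 475, 358 and 431 CPM after deletion, a log2 fold change of 0.43 (SE 0.14). Catalase (Cat) was 109 and 112 CPM in the controls against 104, 111 and 97.5 CPM after deletion.

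**Figure D5:**
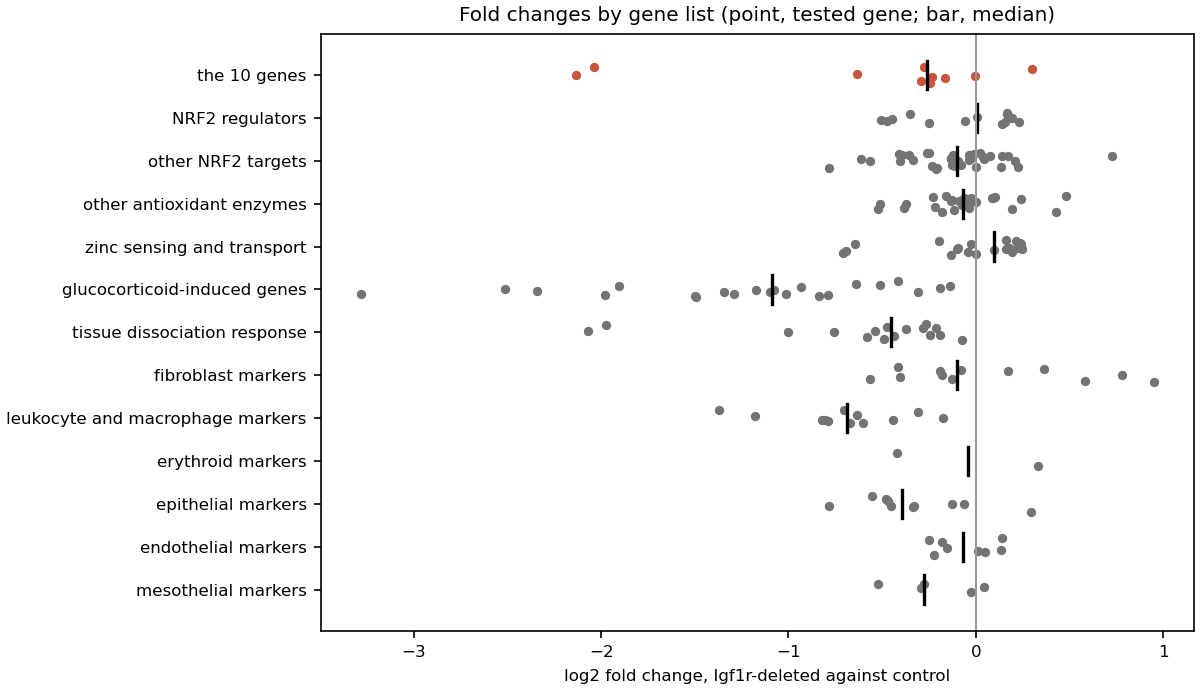
Log2 fold change, Igf1r-deleted against control, on the horizontal axis for every tested gene (points) of the 10 genes and of each gene list (rows), with the list median as a bar. The medians are -1.09 for glucocorticoid-induced genes, -0.10 for other NRF2 targets and 0.095 for zinc sensing and transport.

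The 8 NRF2 genes lie apart in mm10. Hmox1 spans chr8:75093621-75100589 and Nqo1 chr8:107388225-107403206, on the chromosome of the metallothioneins. Nfe2l2 spans chr2:75675513-75704641, Srxn1 chr2:152105516-152111376, Gclm chr3:122245557-122270732, Gclc chr9:77754535-77794485, Txnrd1 chr10:82833951-82897712 and Gpx3 chr11:54902453-54910377. Counts were summed over each gene and are not split by exon or UTR. To order the 10 genes by level, CPM was divided by the length of the principal mRNA in kilobases. The mean over the 5 libraries was highest for Gpx3 (260 CPM per kb), followed by Mt1 (53.1), Nfe2l2 (50.6), Txnrd1 (27.8), Hmox1 (24.3), Mt2 (16.9), Srxn1 (9.22), Gclm (7.18), Gclc (4.42) and Nqo1 (2.88). Gpx3 lay above Mt1, Nfe2l2 above Txnrd1, Gclm above Gclc and Gclc above Nqo1 with no overlap over the libraries. The ranges of the other neighbours overlapped. Mt1 exceeded Nfe2l2 in 2 of 5 libraries, Txnrd1 exceeded Hmox1 in 3, Hmox1 exceeded Mt2 in 4, Mt2 exceeded Srxn1 in 3 and Srxn1 exceeded Gclm in 4. Bowtie2 does not split reads over introns, and what this does to the levels of short, spliced mRNAs such as Mt1 and Mt2 was not tested.

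Promoter windows of the NRF2 genes differed in their matches to the antioxidant response element core. Windows were found for 8 of the 10 genes, not for Hmox1 or Gclc. Matches lay in the windows of Gclm (TGACGGTGC), Srxn1 (TGACCTAGC), Nfe2l2 (TGACTCCGC) and Mt2 (TGACTCAGC), and in 1 of the 3 windows of Txnrd1 (TGACAAAGC), beside 12.4% of all windows. The Gclm match overlapped a metal response element core, of which that window held 3. No match to this core was found in the windows of Nqo1, Gpx3 or Mt1, which says only that these letters are not within them.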

How the data were processed

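The 5 RNA-Seq libraries of GFP-sorted P6 lung cells were grouped by the genotype in the sample labels. The authors used Trim Galore for trimming, Bowtie2 for alignment to mm10 and GenomicAlignments for counting, and deposited raw counts per gene. Versions, the annotation and the use of strand are not given in the sources used here. The kit does not mark strand.

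The two-sided quasi-likelihood test of edgeR 4.0.16 was used, under R 4.3.3 with limma 3.58.1. It took filterByExpr, TMM factors and a single genotype term, and p-values were adjusted by Benjamini-Hochberg across 15298 genes. Log2 CPM for profiles used a prior count of 2. The test was tried on simulated counts. DESeq2 1.42.0, other scalings and filters, the replicate number as a block and leaving out each library were alternatives. Library totals were 35116766 to 37597857 counts. Precision depends on the spread between libraries and, for genes with few counts, on counting as well. Such genes include Nqo1 (124 to 193 counts per library) and Mt2 (86 counts in Igf1r-deleted replicate 3). Positions and mRNA lengths came from GENCODE for mm10, and promoters from RefSeq.

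Besides the 10 genes, the text names up to 4 genes of each list with the smallest unadjusted p under 0.05 and the 5 genes closest in profile to Mt1 and to Hmox1. Other genes (Mtf1, Mt3, Mt4, Keap1, Bach1, Cat, Lyz2, Acta2, Tagln, Fgf18, Tcf21, Pdgfra, Eln) were chosen after their values were seen. The 10 genes and the lists were chosen with earlier results of these data known.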

Additional observations from a re-analysis of the deposited data

How the results depend on the processing

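Of 120 values of the 10 genes under 12 alternatives, 111 kept their direction and their side of an adjusted p of 0.05, 7 reversed and 2 became stronger. Gclc reversed to 0.072 with library totals, 0.0076 with upper-quartile factors and 0.052 with the replicate block, and ranged from -0.083 to 0.065 with libraries left out. Gpx3 ranged from -1.15 to 0.14 with libraries left out. The causes were not tested.

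Genes with an adjusted p under 0.05 numbered 0 in the main analysis, 200 by DESeq2, 136 with the replicate block, and 0 to 45 with libraries left out (45 without Control replicate 2, 5 without Igf1r-deleted replicate 1 and 4 without Igf1r-deleted replicate 2). Genes with an unadjusted p under 0.05 numbered 433 (without Control replicate 1) to 3183 (without Igf1r-deleted replicate 1), beside 1897. Of the 10 genes, 0 to 4 were lower and 0 to 1 higher at that threshold with libraries left out. The replicate block gave 3 lower (Mt1, Mt2 and Gpx3). The higher gene, Txnrd1, was lost (0 genes) by DESeq2, with DESeq2 size factors, with the stricter filter and with the replicate block. Non-overlapping lower genes numbered 2 with library totals and 6 to 8 with libraries left out. The median over all genes was 0.088 with library totals and 0.015 with TMM.

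The replicate numbers of the labels are not said to mark a shared litter or day. Same-numbered libraries deviated together with correlations of 0.21 and 0.12 over 2 pairs. With the number as a block, the log2 fold changes of Mt1 and Mt2 were -1.88 (edgeR adjusted p 0.000645) and -1.73 (0.0104). Non-overlap was not computed under the block. Of 144 list medians, 129 moved by less than the spread and 15 by more. Only 2 controls limit every comparison.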
